A study of Arabidopsis thaliana with 12 samples.

Results

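A set of 128 of the 32833 loci in the count table of Arabidopsis thaliana seedlings had almost no reads in the wild type and clear reads in a mutant of RNA polymerase II (Pol II). A locus was chosen when its counts summed to at most 3 over the 3 Col-0 libraries and reached at least 10 in each of the 3 nrpb2-3 libraries. Of the 10979 loci with so low a Col-0 sum, 128 met the nrpb2-3 limit and 10851 did not, 6377 of which had no read in any of the 12 libraries. The study compared 4 genotypes in 3 libraries each. The mutant nrpb2-3 carries an allele of NRPB2, the gene of the second-largest subunit of Pol II. The mutants ssrp1-2 and spt16-2 carry alleles of SSRP1 and SPT16, which encode the FACT subunits. FACT is a chaperone of histones that loosens nucleosomes ahead of Pol II and rebuilds them behind it. Col-0 is the wild type. All groups were whole seedlings 12 days after germination, grown on soil in long days at 21 °C after 4 days of cold at 4 °C. What each allele does to its protein is not given in the labels, nor is it stated whether replicates were separate sowings, so the p-values below measure only the spread between these libraries, which may be technical.

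Part of the set belongs to families that are known from the embryo sac, the female gametophyte inside the ovule. Its pair of synergid cells secrete LURE1 peptides, small cysteine-rich proteins that attract the pollen tube, and the transcription factor MYB98 is required in synergids for these peptides and for the secretory cell wall at their tip. The egg cell secretes EC1 proteins, which act on sperm cells at fertilization and belong to a large family annotated as ECA1 gametogenesis-related or egg cell-secreted. MYB98 is reported to bind short DNA elements that hold the letters GTAAC. Ovules form in flowers, which are not a part of a young seedling.

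The 200 bases before the annotated start of 8 members show an element that recurs in both families. The printed sequences, 5′ to 3′ on the strand of the gene, come from the RefSeq assembly TAIR10.1, and capitals mark GTAACNT or its complement ANGTTAC. The first 3 are LURE1.2 at chr5:17473849-17474048 on the plus strand, LURE1.3 at chr5:17477743-17477942 on the plus strand and DD11 at chr1:19737084-19737283 on the minus strand. The other 5 are ECA1 family members, AT1G47470 at chr1:17415151-17415350 (minus), AT1G47450 at chr1:17403215-17403414 (minus), AT3G11990 at chr3:3817094-3817293 (plus), AT4G13263 at chr4:7710839-7711038 (plus) and AT5G35405 at chr5:13604745-13604944 (minus). They are shown because each of the 5 holds the element at 2 places, once in each orientation.
LURE1.2: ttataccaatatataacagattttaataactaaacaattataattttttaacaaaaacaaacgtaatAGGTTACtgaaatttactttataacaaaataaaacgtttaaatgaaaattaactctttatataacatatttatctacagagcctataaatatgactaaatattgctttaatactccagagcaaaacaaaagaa
LURE1.3: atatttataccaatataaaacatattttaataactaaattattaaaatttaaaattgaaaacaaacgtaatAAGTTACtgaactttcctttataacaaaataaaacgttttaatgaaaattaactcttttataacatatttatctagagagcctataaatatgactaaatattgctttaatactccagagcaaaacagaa
DD11: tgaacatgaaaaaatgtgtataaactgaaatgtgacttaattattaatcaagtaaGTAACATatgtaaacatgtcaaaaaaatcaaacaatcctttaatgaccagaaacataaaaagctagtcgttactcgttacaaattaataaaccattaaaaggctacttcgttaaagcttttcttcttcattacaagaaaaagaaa
AT1G47470: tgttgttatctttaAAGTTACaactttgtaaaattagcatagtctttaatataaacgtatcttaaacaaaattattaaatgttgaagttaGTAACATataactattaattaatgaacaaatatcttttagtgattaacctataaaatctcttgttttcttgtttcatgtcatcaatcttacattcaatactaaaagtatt
AT1G47450: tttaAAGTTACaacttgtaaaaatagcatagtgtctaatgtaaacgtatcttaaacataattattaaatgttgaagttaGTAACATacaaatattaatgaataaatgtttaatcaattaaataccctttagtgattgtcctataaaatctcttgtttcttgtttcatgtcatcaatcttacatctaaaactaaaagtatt
AT3G11990: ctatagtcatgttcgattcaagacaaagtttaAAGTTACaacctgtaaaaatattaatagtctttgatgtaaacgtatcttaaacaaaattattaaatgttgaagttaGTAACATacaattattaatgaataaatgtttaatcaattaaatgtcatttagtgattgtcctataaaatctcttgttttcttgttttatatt
AT4G13263: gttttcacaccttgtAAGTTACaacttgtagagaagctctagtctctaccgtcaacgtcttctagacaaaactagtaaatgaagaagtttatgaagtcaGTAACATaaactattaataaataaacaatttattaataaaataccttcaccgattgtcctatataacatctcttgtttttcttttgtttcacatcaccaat
AT5G35405: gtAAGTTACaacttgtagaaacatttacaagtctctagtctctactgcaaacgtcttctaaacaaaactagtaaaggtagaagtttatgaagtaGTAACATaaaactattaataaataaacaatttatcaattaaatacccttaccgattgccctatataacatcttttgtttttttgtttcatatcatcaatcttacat

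In LURE1.2 and LURE1.3 the element ended 127 and 123 bases before the gene start. In the 5 ECA1 members the nearer copy ended 86 to 115 bases before the start and the farther copy 162 to 192 bases before it. Searched on both strands of the 250 bases before the start, GTAACNT was found in 35 of 128 members (27.3%), in 3724 of 32548 nuclear loci (11.4%) and in 1263 of the 10770 other nuclear loci with a Col-0 sum of at most 3 (11.7%). By class it was found in 12 of 24 ECA1 members (50%) and in 39 of the 91 ECA1 loci outside the set (42.9%), with exact 95% binomial intervals of 29.1% to 70.9% and 32.5% to 53.7% that overlap. It was found in 8 of 14 members among LURE1 and other small cysteine-rich peptides (57.1%, interval 28.9% to 82.3%). Of the 292 loci of that class outside the set, 31 held it (10.6%, interval 7.33% to 14.7%). The intervals take loci as independent, which related loci of these classes may not be. Outside these 2 classes, 15 of 90 members held it (16.7%). MYB98 itself is not among the members with a match. GTAAC, the core contained in the longer motif, was found in 52.3% of members, 32.4% of the other silent loci and 32.1% of all nuclear loci, and TATAAA, the letters of a TATA box, in 60.2%, 46.1% and 46.1%. The motif was picked after the members were known, paralogs can share promoter sequence, and a match is a description of these letters, not a binding site.

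The summed level of the 128 members was 203 ± 74.6 CPM in nrpb2-3, 17.4 ± 4.36 CPM in ssrp1-2, 11.2 ± 1.03 CPM in spt16-2 and 0.812 ± 0.277 CPM in Col-0 (CPM, counts relative to TMM-scaled library sizes, mean ± SD, n = 3 each). In counts, the members summed to 8057, 7973 and 16973 reads in the nrpb2-3 libraries, 488, 803 and 678 in ssrp1-2, 391, 464 and 452 in spt16-2 and 21, 24 and 42 in Col-0. The nrpb2-3 and Col-0 values restate the choice of members and carry no test. The FACT sums lay between them in every library, and since the rule sets both of those ends, nothing is read from that order. Without spt16-2 replicate 2, a library with a wild-type level of SPT16, the spt16-2 sum was 11.1 CPM. In the fit of all genes, described further on, 118 of the 118 members tested were called higher in nrpb2-3 than in Col-0, which the rule fixes, where 15.8% of all 20471 tested genes were. TMM scaling placed nrpb2-3 levels lower relative to Col-0 by 0.54 on the log2 scale than library totals do, and on totals the members summed to 269.5 CPM in nrpb2-3 and 0.724 CPM in Col-0.

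**Figure D1:**
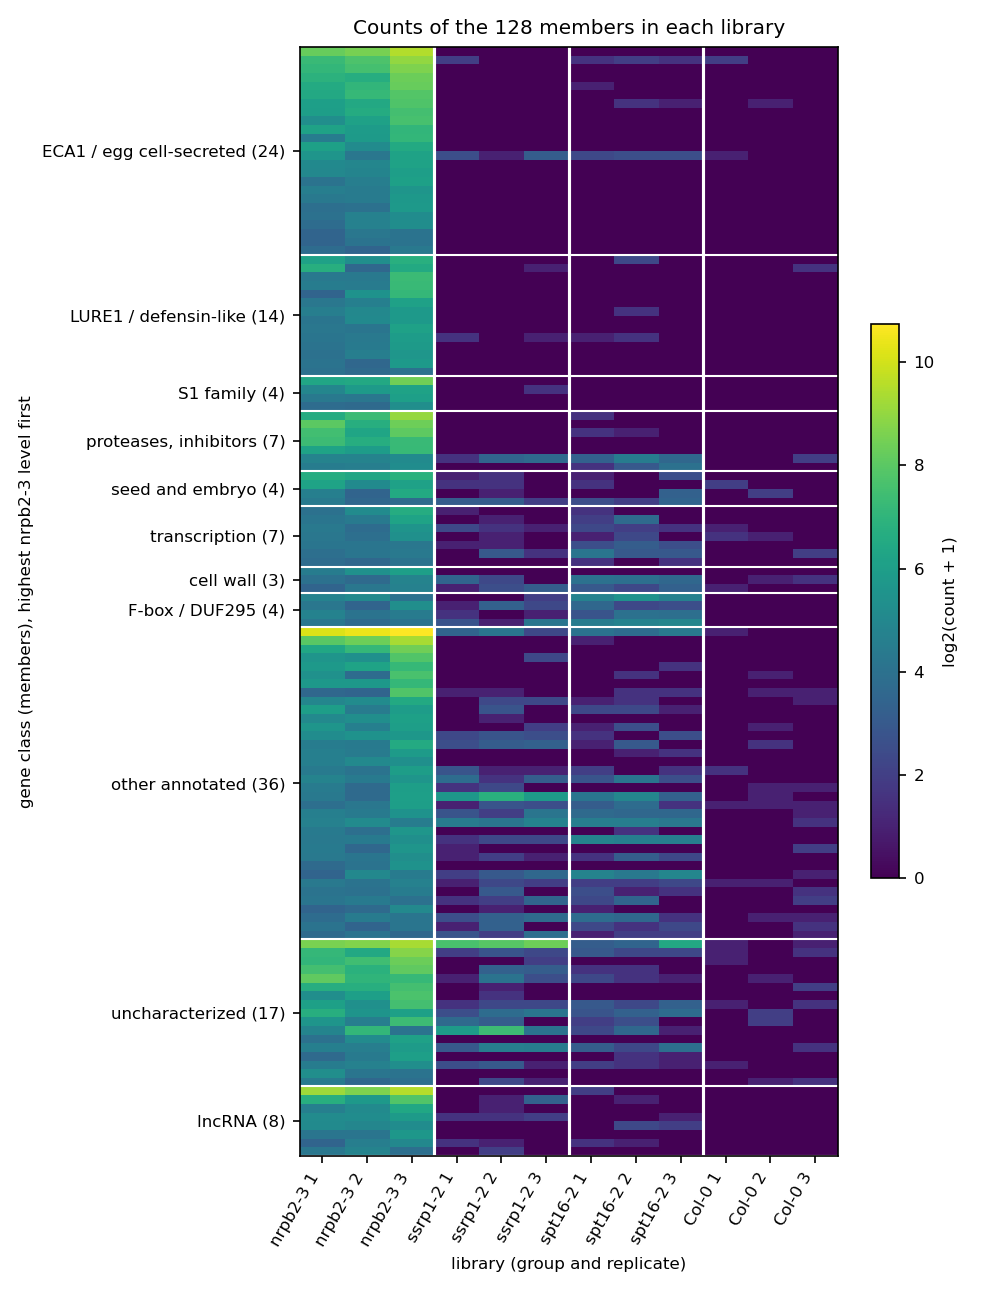
Counts of all 128 members (rows, grouped by gene class) in the 12 libraries (columns), as log2(count + 1). The 3 nrpb2-3 columns are filled in every row, since the rule asks for that, and replicate 3 is the brightest in most rows, while the ssrp1-2 and spt16-2 columns are dark across the ECA1, LURE1 and S1 classes and filled in parts of the F-box, uncharacterized and other annotated classes.

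Before the classes, 4 properties of the libraries bear on every value. Library totals ran from 39483328 to 43434901 counts, and 10 counts corresponded to 0.170 to 0.293 CPM, so a member can sit close to the limit of what this depth shows. The nrpb2-3 libraries differed among themselves: replicate 3 was the highest of the 3 for 101 of 128 members, replicate 1 for 16 and replicate 2 for 11. For a member, replicate 3 was at a median of 1.84 times the mean of replicates 1 and 2, against 0.997 times for the 19332 other loci with at least 10 counts in each nrpb2-3 library. Without replicate 3, with the limit of 10 kept on replicates 1 and 2, the rule would choose 133 loci. As a check of labels, SSRP1 stood at 20.7, 19.7 and 17.9 CPM in ssrp1-2 and at 38.9, 48.4 and 44.2 CPM in Col-0, and SPT16 at 27.8, 55.4 and 30.01 CPM in spt16-2 and at 44.9, 62.0 and 54.6 CPM in Col-0. The library labelled spt16-2 replicate 2 thus had a wild-type level of SPT16. Its flower markers, a list given further on, summed to 29.4 CPM. They summed to 33.6 and 28.8 CPM in the other spt16-2 libraries and to 3.78 to 6.06 CPM in Col-0. Its SSRP1 level was 57.1 CPM, above all ssrp1-2 libraries. The label was kept, and the cause of its SPT16 level was not tested. Sums, counts and calls for spt16-2 are also given without this library. Of the class sums, that of the LURE1 and defensin-like peptides moved by more than 1.5 times, to 0.0129 CPM. NRPB2 stood at 65.4 to 69.2 CPM in nrpb2-3 and 36.5 to 47.3 CPM in Col-0, which does not check that label.

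The same rule with other groups gave smaller sets. With ssrp1-2 in the place of nrpb2-3 it chose 12 loci, and with spt16-2 it chose 37, or 48 without spt16-2 replicate 2. With the roles exchanged, 5 loci were silent in nrpb2-3 and expressed in Col-0, 1 was silent in ssrp1-2 and 0 were silent in spt16-2. These counts share the Col-0 libraries and were not tested against each other.

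The largest named group was the ECA1 and egg cell-secreted family, with 24 of the 128 members from a family of 115 loci. AT2G14378, annotated as an egg cell-secreted-like protein, had 301, 371 and 730 counts in nrpb2-3 and 0 in every ssrp1-2, spt16-2 and Col-0 library, which puts it at least 312-fold higher in nrpb2-3 than in Col-0 against a floor of 3 counts over the 3 Col-0 libraries. AT2G27315 of the same annotation had 137, 187 and 404 counts in nrpb2-3 and 0 in the other 9 libraries. AT5G52965 had 154, 211 and 502 counts in nrpb2-3, 3, 0 and 0 in ssrp1-2, 2, 3 and 2 in spt16-2 and 3, 0 and 0 in Col-0. It sits at the upper Col-0 limit of the rule, and its ratio of 193 has a 95% counting interval of 65.8 to 937. In all, 20 of the 24 had no read in any of the 6 FACT libraries, and the highest sum over those 6 was 28, for EC1.5. The member levels had a median of 1.02 CPM in nrpb2-3 and reached 8.61 CPM, and 22 of 24 were highest in replicate 3. Low reads were not confined to the members: 58 of the 115 family loci had at least 1 count in each nrpb2-3 library, against 5 in ssrp1-2, 6 in spt16-2 and 2 in Col-0. These 58 include the 24 members, for which the rule fixes the nrpb2-3 and Col-0 sides, so the contrast is partly set in advance. At least 10 counts in each nrpb2-3 library were reached by 26 family loci, 24 of them members. As a group these genes were close to absent in both FACT mutants.

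The egg-cell genes proper were only partly present. EC1.5, the member among the EC1 genes, had 47, 18 and 71 counts in nrpb2-3, 5, 1 and 8 in ssrp1-2, 4, 5 and 5 in spt16-2 and 1, 0 and 0 in Col-0. EC1.1, EC1.2 and EC1.3, not members, had 9, 2 and 4, then 2, 0 and 0, then 8, 1 and 9 counts in nrpb2-3, and together 1 count in the other 9 libraries. EC1.4 had 8, 3 and 37 counts in nrpb2-3 and 11, 17 and 10 in Col-0, so its groups overlapped. The EC1 genes and the other female gametophyte genes named here were listed after values had been seen. Of the 17 on that list, 8 were members. MYB64 (1, 0 and 11 counts in nrpb2-3), MYB119 (0, 3 and 0) and AGL61 (0, 0 and 11) were listed and not members. AGL80, also not a member, had 29, 60 and 34 counts in nrpb2-3 and 23, 10 and 17 in Col-0, and was not called between them.

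Several members are known from synergids or are on the list of female gametophyte genes. The grouping was made after values had been seen and drawn from 3 of the classes. MYB98 (AT4G18770), the synergid transcription factor, had 15, 35 and 98 counts in nrpb2-3, 1, 0 and 0 in ssrp1-2, 2, 0 and 0 in spt16-2 and 0 in each Col-0 library, at least 32.9-fold higher in nrpb2-3 than in Col-0. Its locus overlaps AT4G18780 on the other strand, which had 371, 289 and 465 counts in nrpb2-3 and 142, 281 and 245 in Col-0, and whether counting used the strand is not stated. The part of these overlapping reads in the MYB98 counts was not tested. LURE1.3 had 22, 21 and 152 counts in nrpb2-3 and 0 in the other 9 libraries. LURE1.5 had 10, 43 and 139 counts in nrpb2-3 and 0 in the other 9 libraries, one of the 5 widest spreads of the set at 11.5 times between the highest and the lowest nrpb2-3 CPM. LURE1.4 had 23, 31 and 55 counts in nrpb2-3, 0, 2 and 0 in spt16-2 and 0 elsewhere. LURE1.2 had 17, 19 and 60 counts in nrpb2-3, 2, 0 and 1 in ssrp1-2, 1, 2 and 0 in spt16-2 and 0 in Col-0. LURE1.1 missed the rule by 1 count, with 9, 14 and 59 counts in nrpb2-3, a single count in spt16-2 and 0 in ssrp1-2 and Col-0. DD11, named in the annotation as downregulated in DIF1, had 84, 142 and 342 counts in nrpb2-3 and 0 in the other 9 libraries. DD46, a galactosyltransferase family gene of that list, is not counted here as a synergid gene. It had 48, 41 and 226 counts in nrpb2-3, 0, 0 and 4 in ssrp1-2 and 0 elsewhere. In each of these genes, nrpb2-3 did not overlap any other group, as the rule requires of members for its Col-0 side. The lack of overlap with the FACT mutants is not particular to these genes. All 128 members had at least 10 counts in each nrpb2-3 library, and 67 members had at most 3 counts over the 6 FACT libraries. Those 67 thus did not overlap the FACT groups either, and overlap in the remaining members was not counted.

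**Figure D2:**
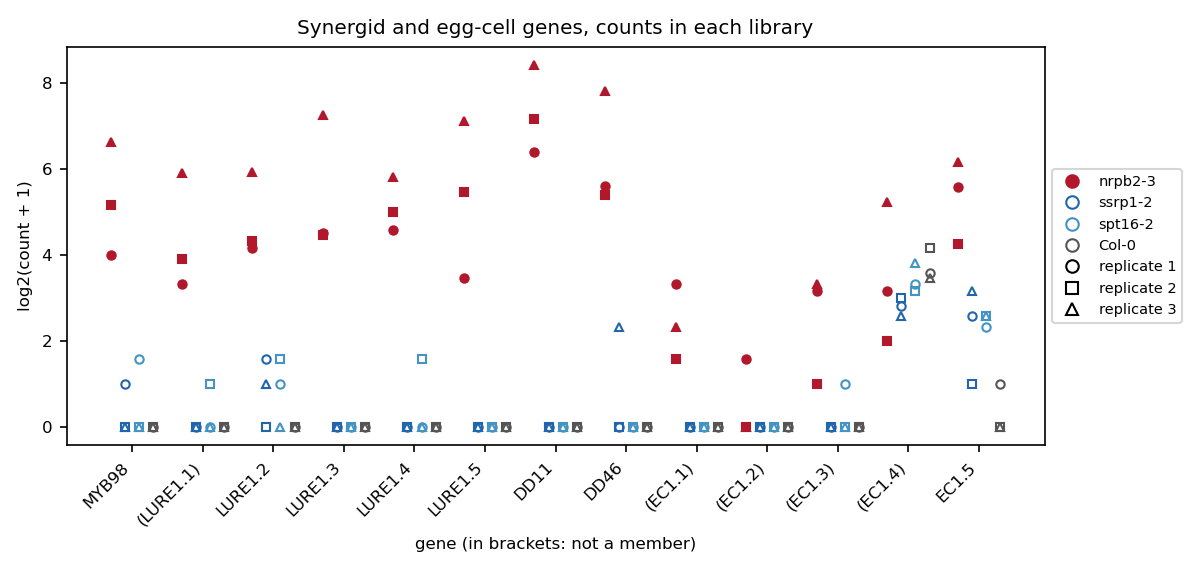
Counts of 13 of the 17 listed female gametophyte genes in each library, as log2(count + 1). Groups run from left to right as in the legend, and replicates are marker shapes. Genes in brackets are not members. The nrpb2-3 triangles (replicate 3) are the highest for MYB98, the LURE1 genes and both DD genes, while EC1.1 to EC1.3 stay at 9 counts or fewer in nrpb2-3.

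The class of LURE1, defensin-like and other small cysteine-rich peptides held 14 members of 306 loci. Of the 306, 57 had at least 1 count in each nrpb2-3 library, against 39 in ssrp1-2, 45 in spt16-2 and 37 in Col-0. Loci of this class outside the set thus had reads in every genotype. AT2G24693, its highest member, had 69, 38 and 109 counts in nrpb2-3, 0, 4 and 0 in spt16-2 and 0 in ssrp1-2 and Col-0. AT1G13608, a defensin-like protein, had 106, 11 and 91 counts in nrpb2-3, so here replicate 2 was the low one, and 2 counts in Col-0. RALFL5 and RALFL14, of the RALF family of extracellular signal peptides, and SCRL26, related to the pollen coat peptides of self-incompatibility, had no read in any FACT or Col-0 library. Of the 14, 10 had no read in the 6 FACT libraries, the highest FACT sum was 6, and 12 were highest in replicate 3. The sum of these 14 members was 11.1 ± 7.11 CPM in nrpb2-3, 0.0349 ± 0.0303 CPM in ssrp1-2, 0.0740 ± 0.107 CPM in spt16-2 and 0.0179 ± 0.0310 CPM in Col-0. A further 4 members belonged to the self-incompatibility protein S1 family of small secreted proteins (65 loci). Their highest, AT5G04047, had 81, 88 and 339 counts in nrpb2-3 and 0 in the other 9 libraries, and the 4 had 2 counts in all over the FACT libraries.

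Reads of close paralogs limit how far single loci can be told apart. Of the 128 members, 90 share no run of 50 exon bases with another locus, 15 share at least 30% of such runs and 8 at least 80%. A group of 5 ECA1 loci on chromosome 5, AT5G36310, AT5G36340, AT5G36659, AT5G36661 and AT5G36738, share 82.6% to 100% of their runs with other loci, and LURE1.2 shares 89.3%. How reads that map to several places were counted is not stated, so the 279 counts of those 5 loci in nrpb2-3, against 0 in ssrp1-2, spt16-2 and Col-0, are better read as a group. AT2G40955 and AT4G15096, uncharacterized proteins that share 84.7% and 82.7% of their runs with each other or with AT2G40960, had 140, 88 and 436 and then 67, 41 and 185 counts in nrpb2-3 and a sum of 3 each in Col-0.

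Proteases and protease inhibitors gave 7 members of 379 loci with higher levels than the peptides, at a median of 2.65 CPM in nrpb2-3. AT2G39851, a proteinase inhibitor propeptide, had 96, 160 and 530 counts in nrpb2-3 and 2 counts over the other 9 libraries. AT2G35615 had 262, 106 and 327 counts in nrpb2-3 and 0 in the other 9 libraries, and AT1G31450 had 176, 79 and 266 counts in nrpb2-3 and 3 in spt16-2. Both are annotated as eukaryotic aspartyl proteases. The subtilases AT3G46850 (162, 103 and 154 counts in nrpb2-3) and SBT4.13 (74, 60 and 148) had no read elsewhere. In these 4 protease genes replicate 2 was the lowest nrpb2-3 library. Another subtilase, AT5G11940, differed from them, with 27, 27 and 34 counts in nrpb2-3, 2, 10 and 12 in ssrp1-2, 9, 22 and 11 in spt16-2 and 0, 0 and 3 in Col-0.

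The highest members by level were of mixed annotation. AT5G03090, annotated as Mto 1 responding down protein, had 1165, 1373 and 1702 counts in nrpb2-3, 10, 17 and 4 in ssrp1-2, 16, 13 and 19 in spt16-2 and 1, 0 and 0 in Col-0. Its level per length was also the highest of the set, at 90.2 CPM per kilobase of exon in nrpb2-3. AT2G04735, a long noncoding RNA (lncRNA), had 564, 400 and 742 counts in nrpb2-3, 3 in spt16-2 and 0 in ssrp1-2 and Col-0. AT1G75945, an uncharacterized protein, had 379, 414 and 646 counts in nrpb2-3 and 1, 0 and 1 in Col-0. AT5G45910, a GDSL-like lipase, had 256, 331 and 633 counts in nrpb2-3, 1 in spt16-2 and 0 in ssrp1-2 and Col-0. AT5G60000 and AT5G35375, both uncharacterized, reached 133, 174 and 321 and then 186, 114 and 278 counts in nrpb2-3, with 1 and 0 counts over Col-0. Without the 3 highest members, the other 125 summed to 157 CPM in nrpb2-3, 10.4 CPM in ssrp1-2, 9.82 CPM in spt16-2 and 0.783 CPM in Col-0.

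Of the 128 members, 120 were protein-coding, 8 were lncRNAs and 0 were pseudogenes. The 8 lncRNAs come from 3480 lncRNA loci, 3013 of them with a Col-0 sum of at most 3, and all 8 had 0 counts in Col-0. AT4G06835 had 105, 54 and 222 counts in nrpb2-3, 0, 1 and 9 in ssrp1-2, 0, 1 and 0 in spt16-2 and 0 in Col-0, and AT1G06883 had 24, 34 and 84 counts in nrpb2-3 and 1 count elsewhere. The protein-coding members had short genes, with a median exon length of 870 bases, against 1552 bases over all 27444 protein-coding loci. The 6503 other protein-coding loci with a Col-0 sum of at most 3 had a similar median of 884 bases. Likewise 32.5% of protein-coding members had 1 exon, against 33.3% of those other silent loci and 18.4% of all protein-coding loci. Short length was thus shared with silent genes at large.

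Smaller classes, set by product keywords, held seed and embryo proteins, transcription regulators and cell wall enzymes. Of 4 seed and embryo proteins, AT2G28680, a cupin, had 100, 81 and 114 counts in nrpb2-3 and 0 in Col-0. AT3G17520, a late embryogenesis abundant protein, had 74, 34 and 69 counts in nrpb2-3 and 3, 0 and 0 in Col-0. ATS3, an embryo-specific protein, had 20, 11 and 12 counts in nrpb2-3, 8, 8 and 3 in ssrp1-2, 5, 3 and 10 in spt16-2 and 0 in Col-0. ECP63, embryonic cell protein 63, had 24, 10 and 91 counts in nrpb2-3, 0, 0 and 9 in spt16-2 and 0, 3 and 0 in Col-0. The list of 11 seed markers had no member. CRA1, CRU3, SESA1 and SESA3, genes of seed storage proteins, were at 0 in every nrpb2-3 library. EM6, a late embryogenesis gene, had 16, 2 and 6 counts in nrpb2-3 and 0 in Col-0, LEC1, an embryo regulator, 3, 4 and 2 in nrpb2-3 and 0 in Col-0, and FUS3, another embryo regulator, 27, 8 and 7 in nrpb2-3 and 8, 1 and 7 in Col-0. The 7 transcription regulators were, besides MYB98, NAC071, AT4G31685 of the B3 family, HSFA6A, HDG4, DREB19 and a basic leucine-zipper gene (AT1G68880). NAC071 had 17, 20 and 73 counts in nrpb2-3, 3, 12 and 0 in spt16-2, 1 in ssrp1-2 and 0 in Col-0. The 3 cell wall enzymes were PME38, a pectin methylesterase with 22, 42 and 66 counts in nrpb2-3 and 0 in the other 9 libraries, the cellulose synthase gene CESA10 and the expansin EXPA20. The widest spreads within nrpb2-3 were those of the methyltransferase NAMT1 (11, 10 and 226 counts) and of ATC, a relative of the flowering repressor TFL1 (42, 13 and 199 counts), at 19.8 and 13.4 times between the highest and the lowest CPM, with replicate 3 the highest in both.

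Marker lists of other organs did not move as one with the members, and their part in the levels was not tested. In a whole seedling, fewer cells of a type and less RNA per cell cannot be told apart. The 9 flower markers summed to 1.93 to 2.95 CPM in nrpb2-3, 22.5 to 31.5 CPM in ssrp1-2, 28.8 to 33.6 CPM in spt16-2 and 3.78 to 6.06 CPM in Col-0. Of the 8 tested, 0 were called higher and 3 lower in nrpb2-3 than in Col-0 (edgeR's quasi-likelihood test), and 5 were called higher in each FACT mutant. Over all tested genes, 15.8% were called higher and 15.1% lower in nrpb2-3, and 0.454% and 0.376% were called higher in ssrp1-2 and spt16-2. The 3 called lower in nrpb2-3 were AP1, AG and SEP1. AP3, a petal and stamen gene, had 3, 5 and 2 counts in nrpb2-3 and 8, 0 and 4 in Col-0, PI, its partner, 22, 12 and 37 in nrpb2-3 and 25, 9 and 12 in Col-0, and SEP3 34, 47 and 82 in nrpb2-3 and 65, 35 and 41 in Col-0. SHP1, a carpel and ovule gene, had 25, 41 and 48 counts in nrpb2-3 and 4, 16 and 7 in Col-0, with no overlap of these groups, a log2 difference of 1.47 ± 0.55 (SE) and an adjusted p of 0.057 in edgeR's test. STK, an ovule gene, was at 0 in each nrpb2-3 and Col-0 library. The 6 ovule markers, listed after values had been seen, summed to 17.5 to 21.6 CPM in nrpb2-3 and 17.3 to 30.4 CPM in Col-0, most of it BEL1; SHP1 is also on this list, and STK, SHP2 and INO were at 0 in nrpb2-3. The 9 pollen markers summed to 25.6 to 33.4 CPM in nrpb2-3 and 30.2 to 41.2 CPM in Col-0, and 2 of 4 tested (HAP2 and GEX1) were called higher in nrpb2-3. The 12 root markers summed to 81.7 to 89.2 CPM in nrpb2-3 and 48.4 to 61.0 CPM in Col-0, and 3 of 5 tested (SHR, WOX5 and PHO1) were called higher. The 6 leaf and shoot markers summed to 14063 to 26567 CPM in nrpb2-3 and 53593 to 57684 CPM in Col-0, with 4 of 6 called lower in nrpb2-3, so leaf transcripts took a smaller share there. The seed markers summed to 0.389 to 1.09 CPM in nrpb2-3 and 0.231 to 0.351 CPM in Col-0.

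None of the genes in the silencing lists was a member. Of 19 genes of RNA-directed DNA methylation, the pathway in which the Pol II relatives Pol IV and Pol V silence DNA, 12 were called higher and 0 lower in nrpb2-3, where 15.8% of all tested genes were called higher, with a median log2 difference of 0.58 against 0.05 over all tested genes. Of 14 genes of maintenance methylation and heterochromatin 4 were called higher and 0 lower, and of 5 of DNA demethylation 1 was called higher, a share near that of all tested genes. On a list of 9 genes taken as silenced by DNA methylation in seedlings, FWA had 0, 3 and 0 counts and SDC 11, 3 and 0 counts in nrpb2-3. MEA, FIS2 and HDG9 were at 0 in each nrpb2-3 and Col-0 library. The list also holds QQS, PHE1 and MPC, which were not silent here, with reads in each Col-0 library. QQS, expressed in the wild type, had 859, 623 and 1151 counts in nrpb2-3 and 65, 23 and 46 in Col-0. Of the 3 listed genes tested, QQS was called higher and MPC lower in nrpb2-3. MPC had 9, 2 and 6 counts in nrpb2-3 and 21, 12 and 15 in Col-0. PHE1, with 44, 23 and 22 counts in nrpb2-3 and 14, 12 and 24 in Col-0, was not called.

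In the FACT mutants, 44 members had no read in any of the 6 libraries, 67 had at most 3 reads over those 6, and 61 had more than 3. Without spt16-2 replicate 2 these numbers were 48, 70 and 58. At least 10 counts in each library were reached by 4 members in ssrp1-2 (3.12%), against 8 of the 10851 other loci silent in Col-0 (0.0737%). In spt16-2, 8 members reached it (6.25%), against 29 of those other loci (0.267%), and the count was again 8 without spt16-2 replicate 2. Of the 10851 other loci, 6377 had no read in any of the 12 libraries, while every member was chosen for its reads in a mutant. The gap between these shares thus follows in part from the choice of members, and nothing is read from it. Without ssrp1-2 replicate 1 the ssrp1-2 count was 7. A single member, AT4G29760, did so in all 6, with 21, 17 and 26 counts in ssrp1-2, 23, 23 and 18 in spt16-2 and 25, 35 and 22 in nrpb2-3, against 0, 0 and 2 in Col-0. It is annotated as a target of trans-acting siRNAs, small RNAs that guide cleavage of transcripts. Its level was 0.564 ± 0.0952 CPM in ssrp1-2, 0.547 ± 0.0575 CPM in spt16-2 and a mean of 0.523 CPM in nrpb2-3. The 3 means thus lay close together on TMM-scaled library sizes, and their equality was not tested.

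Against Col-0, 4 of the 118 tested members were called higher in ssrp1-2 (3.39%), where 0.454% of all tested genes were, and 6 in spt16-2 (5.08%), where 0.376% were. The Col-0 values chose the members and both comparisons share the Col-0 libraries, so nothing is read from these counts. Those called in ssrp1-2 were AT5G03090, AT4G29760, AT1G75945 and MLP328, and those in spt16-2 were AT5G03090, AT4G29760, AT5G53240, AT1G30170, SRO3 and TIF3C2. Without any 1 library of the groups compared, 1 to 3 members were called in each mutant. The count fell by more than 1.5 times for ssrp1-2 without any Col-0 library (1, 1 and 2 members) or without ssrp1-2 replicate 3 (2 members), and for spt16-2 without any of its 6 libraries, among them spt16-2 replicate 2 (3 members).

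The members most present in 1 FACT mutant differed between the mutants in their values. AT1G75945 had 8, 10 and 88 counts in spt16-2 and 200, 245 and 324 in ssrp1-2, so spt16-2 replicate 3 lay far above the other spt16-2 libraries and below all of ssrp1-2. MLP328, of the major latex protein family, had 17, 29 and 9 counts in spt16-2, 50, 112 and 57 in ssrp1-2 and 19, 12 and 65 in nrpb2-3. AT5G15360, an uncharacterized protein, had 4, 11 and 1 counts in spt16-2, 59, 164 and 16 in ssrp1-2, 28, 138 and 16 in nrpb2-3 and 0 in Col-0, and replicate 2 was the highest in all 3 mutants. Other members had more reads in spt16-2. AT5G53240, a DUF295 protein, had 26, 43 and 25 counts in spt16-2 and 0, 0 and 3 in ssrp1-2. SRO3, of the RCD1 family of stress proteins, had 27, 24 and 23 counts in spt16-2 and 2, 4 and 4 in ssrp1-2. AT1G30170, another DUF295 protein, had 22, 26 and 29 counts in spt16-2 and 6, 1 and 17 in ssrp1-2. TIF3C2, a subunit of translation initiation factor 3, had 27, 19 and 29 counts in spt16-2 and 3, 7 and 11 in ssrp1-2. For AT5G53240, SRO3, AT1G30170 and TIF3C2 all spt16-2 libraries lay above all ssrp1-2 libraries. These genes are shown as members with more reads in spt16-2, so this order partly follows from their choice. The share of all members that separate in this way was not counted, and the main fit below called none of them. SRO3 and AT1G30170 each overlap an expressed locus on the other strand. The partner of SRO3, AT1G70430, had 62, 89 and 74 counts in spt16-2 and 61, 65 and 110 in ssrp1-2, and that of AT1G30170, AT1G30160, had 97, 71 and 94 in spt16-2 and 102, 118 and 87 in ssrp1-2, so the partners' libraries overlapped between the mutants.

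The rule used neither group of the comparison of spt16-2 with ssrp1-2, but it decided which members could enter it. The 118 tested members passed the filter on low counts over all 12 libraries, where nrpb2-3 is high, and 15 passed it over the 6 FACT libraries, so most of the 118 entered through a group that is not compared, and the count of calls among them says little. In edgeR's quasi-likelihood test, adjusted by Benjamini-Hochberg over all 20471 tested genes, 0 of the 118 tested members were called higher in spt16-2, where 0.0537% of all tested genes were, and 0 lower, where 0.0147% were. At an unadjusted p under 0.05 there were 13 members, 9 higher and 4 lower in spt16-2. The lowest adjusted p belonged to AT5G53240, with a log2 difference of 4.77 ± 0.88 (SE) and an adjusted p of 0.14, higher in 3 of 3 spt16-2 libraries. For SRO3 the log2 difference was 2.80 ± 0.56 with an adjusted p of 0.20, and for AT1G75945 it was −2.87 ± 0.70 with an adjusted p of 0.52. DESeq2 called 2 members, AT5G53240 (adjusted p = 0.0023) and SRO3 (adjusted p = 0.029), and limma on the authors' scaled TPM called 0. With the replicate number as a block, edgeR called AT5G15360 (log2 difference −3.97 ± 0.46, adjusted p = 0.0062). Without spt16-2 replicate 3, it called AT1G75945 (−4.89 ± 0.36, adjusted p = 0.00011), and without spt16-2 replicate 2 it called 0 members. Of the 118 members, 16 reached a mean of 10 counts in either FACT mutant. In the fit of the 6 FACT libraries, 0 of the 15 members tested were called. No member was shown to be equal in the mutants.

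**Figure D3:**
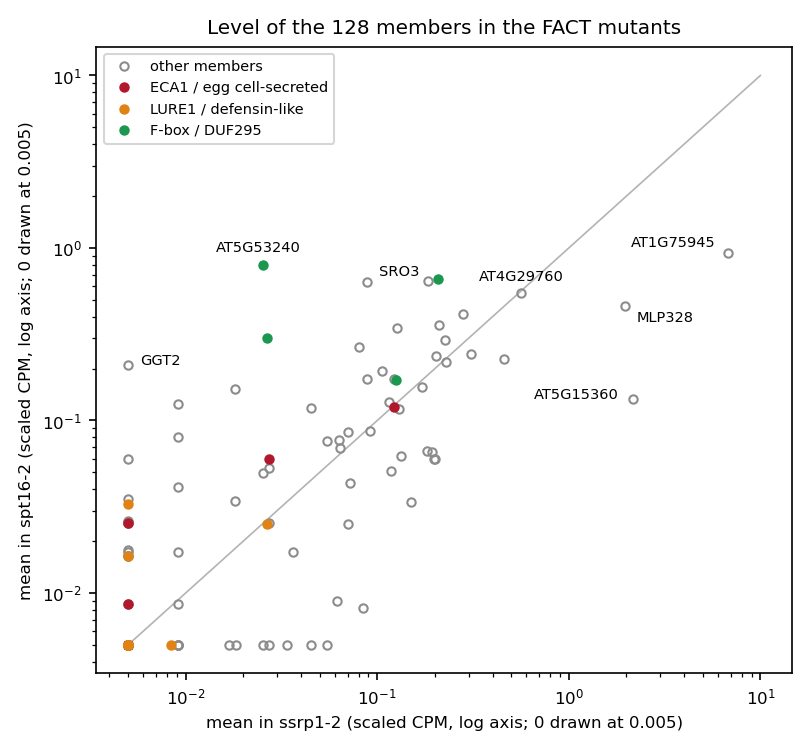
Mean level of each of the 128 members in spt16-2 (vertical) and ssrp1-2 (horizontal), in scaled CPM on log axes, with members at 0 drawn at 0.005 and the line marking equal levels. ECA1 and LURE1 members lie at the lower left, apart from EC1.5 near 0.12 CPM on both axes, AT1G75945, MLP328 and AT5G15360 lie to the right of the line, and AT5G53240, SRO3 and GGT2 lie above it.

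**Figure D4:**
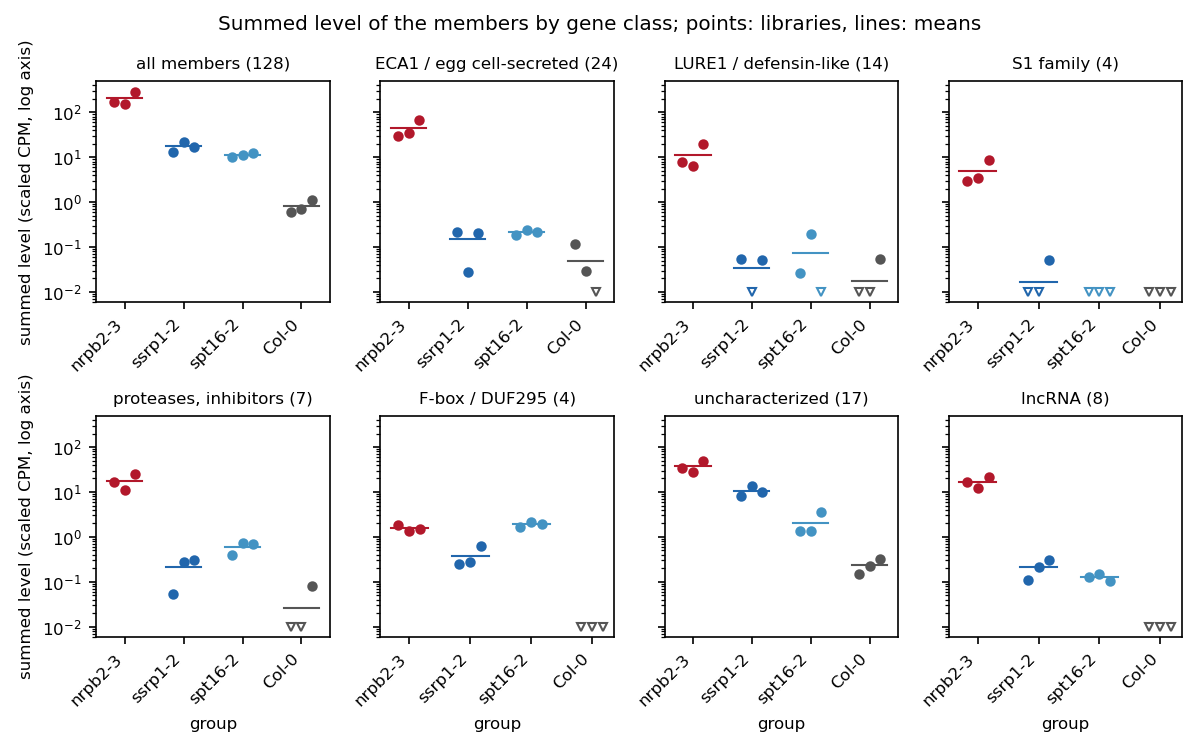
Summed level of the members in each library (points) and group mean (lines) for all members and 7 classes, in scaled CPM on a log axis, with open triangles for libraries at 0. The ECA1 class summed to 44.4 CPM in nrpb2-3 against 0.149 CPM in ssrp1-2 and 0.213 CPM in spt16-2, whereas the 4 F-box and DUF295 members summed to 1.57 CPM in nrpb2-3, 0.383 CPM in ssrp1-2 and 1.93 CPM in spt16-2.

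The plot by class shows how unevenly the FACT levels were spread. The ECA1 class was at 44.4 ± 20.7 CPM in nrpb2-3, 0.149 ± 0.106 CPM in ssrp1-2, 0.213 ± 0.0324 CPM in spt16-2 and 0.0486 ± 0.0610 CPM in Col-0. The 17 uncharacterized proteins were at 37.2 ± 11.0 CPM in nrpb2-3, 10.6 ± 2.89 CPM in ssrp1-2, 2.08 ± 1.27 CPM in spt16-2 and 0.233 ± 0.0880 CPM in Col-0, with AT1G75945 giving most of the ssrp1-2 level. The 4 F-box and DUF295 members were the class in which spt16-2, at 1.93 ± 0.242 CPM, reached the level of nrpb2-3, at 1.57 ± 0.214 CPM, with 0.383 ± 0.214 CPM in ssrp1-2 and 0 in Col-0. The 8 lncRNAs were at 16.6 ± 4.49 CPM in nrpb2-3, 0.210 ± 0.0971 CPM in ssrp1-2, 0.128 ± 0.0200 CPM in spt16-2 and 0 in Col-0. Zero counts here allow up to 3 counts over the group, and this covers counting error only.

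Members lay on all 5 chromosomes, with 24, 24, 11, 28 and 41 on chromosomes 1 to 5. Per 1000 loci of the table this was 2.77 on chromosome 1, 4.64 on chromosome 2, 1.71 on chromosome 3, 5.69 on chromosome 4 and 5.57 on chromosome 5. Chromosome 5 held 13 of the 24 ECA1 members and 7 of the 14 peptide members, while chromosome 4 held 2 and 3 of them.

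**Figure D5:**
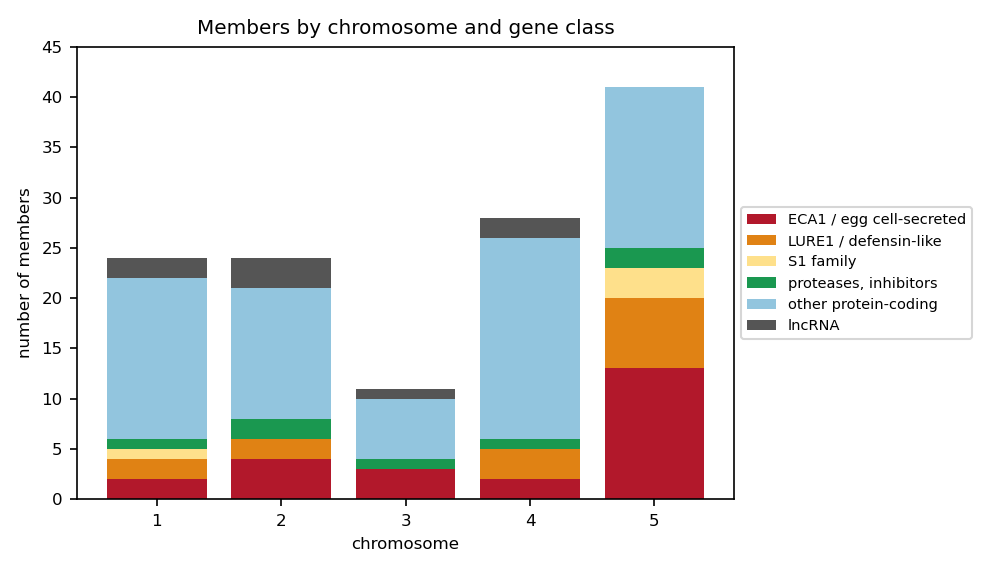
Number of members on each chromosome, stacked by gene class. Chromosome 5 has the tallest bar with 41 members, 13 of them ECA1 and egg cell-secreted loci, and chromosome 3 the shortest with 11.

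Few members were neighbours. Allowing 1 locus between them, 12 members lay in 5 runs. The longest was the LURE1 cluster on chromosome 5, where LURE1.2, LURE1.3, LURE1.4 and LURE1.5 lie on the plus strand within 6 loci. The other runs were pairs: AT5G52965 with AT5G52975, AT4G13261 with AT4G13263 and AT5G36659 with AT5G36661, all ECA1 loci on 1 strand, and ECP63 with AT2G36650 on opposite strands. Of the 216 loci next to a member that were not members, 122 were tested, and 25 of these were called higher in nrpb2-3 (20.5%, against 15.8% of all tested genes) and 18 lower. Their median log2 difference between nrpb2-3 and Col-0 was 0.12, against 0.05 over all tested genes. Of the members, 24 overlap another annotated locus, 19 on the other strand and 5 on the same strand, and for 13 of them the partner had at least 10 counts in each nrpb2-3 library.

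At the edges of the rule, the members with the lowest nrpb2-3 counts were AT5G36659 (13, 10 and 19), AT5G36738 (10, 16 and 16) and DMP7 (16, 10 and 17), and 12 members had a lowest count of exactly 10. Just outside lay LURE1.1, AT2G33280 (9, 20 and 33 counts in nrpb2-3) and AT4G02160 (9, 10 and 37), among 11 loci with a lowest count of 9. On the Col-0 side, 16 loci were outside by 1 count, led by AT3G27473 (178, 114 and 290 counts in nrpb2-3, 4 in Col-0), AT4G08570 (160, 33 and 383 in nrpb2-3, 4 in Col-0) and AGL38 (123, 110 and 100 in nrpb2-3, 4 in Col-0). Members and near misses thus differ by single counts.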

How the data were processed

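Total RNA of 12 libraries of whole seedlings was sequenced, 3 for each of 4 genotypes. The values analysed are raw counts per gene as deposited by the authors. The submitters' processing notes name fastp 0.23.4, HISAT2 2.2.1 and the build TAIR10. How reads were assigned to genes, whether strand was used and what was done with multi-mapped reads is not given in the sources used here. The authors also deposited a scaled signal under the name TPM, with column totals of 652496 to 1181546, which served only as a limma alternative.

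Members were chosen from the raw counts by the rule in the opening. The members, classes, gene lists and tests were chosen with earlier results of these data known, and the motif and the lists of female gametophyte and ovule genes after member values had been seen. Levels are CPM on library sizes scaled by TMM. All 20471 genes that passed filterByExpr (minimum count 10) were fitted in 12 libraries with edgeR 4.0.16 in R 4.3.3 (robust quasi-likelihood, genotype as the single factor), with calls made below 0.05 after Benjamini-Hochberg adjustment. That filter kept 118 members and dropped 10, and a filter on the 6 FACT libraries alone would keep 15. The scripts were tested on simulated counts. Genes were named by a rule: the highest members in nrpb2-3, in each class and in the FACT mutants, neighbours, the widest spreads and the edges; EC1.5, DD46, RALFL5, RALFL14, SCRL26 and the remaining class members given were chosen after their values were seen. A fold against 0 is a bound at 3 counts over the group, and against 1 to 3 counts a ratio with a 95% interval.

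Classes are keywords in RefSeq TAIR10.1 product and note fields, and all 128 members matched by locus. The count files name TAIR10 and hold no coordinates; of 10979 well-covered genes, 99.5% had a ratio of counts to the authors' signal that matched the TAIR10.1 exon length within 0.5%, up to 1 common factor. Same-numbered libraries of spt16-2 and ssrp1-2 deviated together (correlations 0.20 to 0.34 over genes). Across the other pairs of groups these correlations ran from −0.05 to 0.37, with both ends between Col-0 and ssrp1-2. The replicate number was therefore also used as a block, which the main fit leaves out. What the replicate number stands for is not given.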

Additional observations from a re-analysis of the deposited data

How the results depend on the processing

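The size of the set follows its limits. It was 85 with a Col-0 sum of 0, 237 with a sum of at most 10, 241 with at least 5 and 64 with at least 20 counts in each nrpb2-3 library, and 133 to 173 with 1 library of either group left out (a Col-0 sum of at most 2 over the 2 left). Members with enough counts in each ssrp1-2 library numbered 8 at 5 counts, 2 at 20 counts and 4 to 7 without 1 library, and in spt16-2 16 at 5, 3 at 20 and 8 to 11 without 1 library. Without the 3 highest members the summed level moved to 10.4 CPM in ssrp1-2 and 9.82 CPM in spt16-2. Between spt16-2 and ssrp1-2, 1 member was called with a replicate block, 2 with DESeq2 and 0 to 1 without 1 library, against 0. Against Col-0 higher in ssrp1-2, 4 members were called, 6 with a replicate block, 2 in a fit of the 6 libraries, in which 4 members passed the filter, 10 with DESeq2, 2 with limma and 1 to 3 without 1 library. In spt16-2, 6 were called, 6 with a replicate block, 12 with DESeq2, 1 with limma and 1 to 3 without 1 library. The cause of these shifts was not tested. AT4G29760 was joined by 1 more member with at least 10 counts in every FACT library when ssrp1-2 replicate 3, spt16-2 replicate 1 or spt16-2 replicate 3 was left out. GTAACNT was found in 40.6% of members (21.7% of all nuclear loci) in 500 bases and in 55.5% (38.6%) in 1000 bases. Counts this low limit every statement on the FACT mutants.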
